A study of Caenorhabditis elegans with 24 samples.

Results

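The 10 genes described here are the vitellogenin genes vit-1, vit-2, vit-3, vit-4, vit-5 and vit-6, the regulators ceh-60, unc-62 and lrp-2, and the yolk receptor gene rme-2. They were chosen by name and found by an exact match of that name, 10 of the 46739 features of the deposited table. The rule used no measured value, but earlier results of these data were known when the genes were chosen. The samples were whole Caenorhabditis elegans hermaphrodites, wild-type N2 by the labels, kept at 25 °C and fed RNAi bacteria for cdc-25.1, a phosphatase gene of the cell cycle whose knockdown leaves the adults sterile. All groups, controls included, share this RNAi treatment. Injured worms received blunt force trauma on day 1 of adulthood, by agitation at 8600 rpm for 16 s, and uninjured controls were handled in the same way without agitation. Poly(A) RNA was sequenced from injured worms at 8, 48 and 96 h post-injury and from age-matched controls at the same times, with 4 libraries in each of the 6 groups. Each library pools many worms, and whether the replicates came from separate cultures is not said in the labels, so p-values measure the spread between these libraries only. Some figure legends of the study name another, temperature-sterile strain for RNA sequencing, and the labels were followed here. Library numbers follow column order in the table and serve as names only.

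Vitellogenins are the yolk lipoproteins of the worm. The adult intestine makes them, loads them with lipid and secretes them into the body cavity, and growing oocytes take them up by endocytosis through RME-2, a receptor of the LDL receptor family. The proteins of vit-1 to vit-5 form the larger yolk polypeptides, and that of vit-6 is cleaved into the smaller ones. CEH-60, a PBX homeodomain protein, and UNC-62, a MEIS homeodomain protein, act together in the intestine to promote vitellogenin transcription. LRP-2, a protein of the LDL receptor-related family, is known as a further positive regulator of yolk protein levels. In hermaphrodites that no longer form embryos the intestine goes on making yolk, which can collect in the body cavity.

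Coordinates are those of the ce11 assembly. All vitellogenin genes except vit-6 lie on the X chromosome, vit-1 at X 7727889 to 7733168, vit-2 at X 5101042 to 5106169 and vit-5 at X 3403471 to 3408603, these on the plus strand, and vit-3 at X 3567355 to 3572549 and vit-4 at X 3558769 to 3563965 on the minus strand. vit-6 lies on chromosome IV at 8261157 to 8266459, plus strand. ceh-60 is at X 6522596 to 6530146 (minus), unc-62 at V 4497461 to 4511449 (plus), lrp-2 at I 3935272 to 3953991 (minus) and rme-2 at IV 5470026 to 5473174 (plus). All 10 are annotated as protein coding, with between 1.33 kb of exon in ceh-60 and 14.85 kb in lrp-2. vit-3, vit-4 and vit-5 are close copies of each other, as are vit-1 and vit-2. How the authors' counting treated reads shared by copies is not stated, so the values of single copies are uncertain. Their sum would not be altered by a split of shared reads between copies, but it would be if such reads were left out. ceh-60 shares 72 exon bases with ets-4 on the opposite strand, which was listed at 6.11 to 23.78 RPKM, and as the strand setting is not stated the reads of that stretch cannot be assigned. The overlaps of vit-2 with C42D8.9, of vit-3 with T27A10.8 and of vit-4 with F59D8.3 involve features listed at no more than 1.01 RPKM.

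Values are RPKM, read numbers corrected for the length of a gene's exons and for library depth. Estimated from the steps between low values, the libraries held 19650000 to 30137500 mapped reads, except control 48 h library 4, for which no depth was recovered. At these depths ceh-60, the weakest of the 10, rested on 80 to 562 reads in a library, and vit-1, the weakest vitellogenin, on 3078 to 117413. The share of reads on rRNA features was 7.87% in library 4 and 5.17% in library 2 of the 8 h injured group, 46.1% in library 4 and 8.35% in library 2 of the 48 h controls, and 0.878 to 3.08% elsewhere. Log2 changes are those of log2(RPKM + 0.5), fitted with limma over the 14813 features with at least 1 RPKM in at least 4 libraries, which include all 10 genes, and adjusted p-values are Benjamini-Hochberg over those features, called below 0.05. At 48 h the median feature was 0.48 higher in injured than in control libraries on the log2 scale as deposited, and 0.00 after median-of-ratios scaling. Values after that scaling are therefore given beside those at 48 h. Intervals are 95% intervals of the limma fit.

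The level of the yolk genes spanned a wide range within every library. vit-2 was the highest of the 6 vitellogenins in 21 of 24 libraries, vit-5 in 2 and vit-6 in 1, whereas vit-3 ranked the fourth, vit-4 the fifth and vit-1 the last in all 24. In 96 h controls the means of vit-2, vit-5 and vit-6 were 5397, 5292 and 4468 RPKM, with overlapping library ranges. vit-3 followed at 350.2 RPKM and overlapped vit-4 at 255.1, while vit-1 at 140.3 lay below both. rme-2 (35.2 RPKM), unc-62 (28.2), lrp-2 (21.5) and ceh-60 (17.2) came last in these controls. In 96 h injured libraries vit-2 (1171 RPKM), vit-6 (1084) and vit-5 (994) again came first with overlapping ranges, but rme-2, at a mean of 210.9 RPKM, stood above vit-3 (158.9), vit-4 (108.4) and vit-1 (45.7), and overlapped vit-3 and vit-4. At 8 h the ranges of unc-62 and lrp-2 overlapped in injured but not in control libraries.

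Together the 6 vitellogenin genes took between 0.983 and 17.1% of the mapped reads of a library. At 8 h their share of mapped reads was 8.35, 17.1, 6.04 and 3.34% in injured libraries 1 to 4, against 15, 12.7, 14.8 and 16.2% in control libraries. The 48 h shares were 1.88, 2.31, 2.43 and 4.34% in injured libraries and 10.2, 14.3, 8.27 and 5.63% in controls. By 96 h the injured libraries gave 2.29, 2.22, 1.58 and 0.983%, and the control libraries 9.37, 7.4, 7.9 and 6.82%. The ranges of injured and control libraries were apart at 48 and 96 h, and at 8 h they overlapped because injured library 2 exceeded every control.

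**Figure D1:**
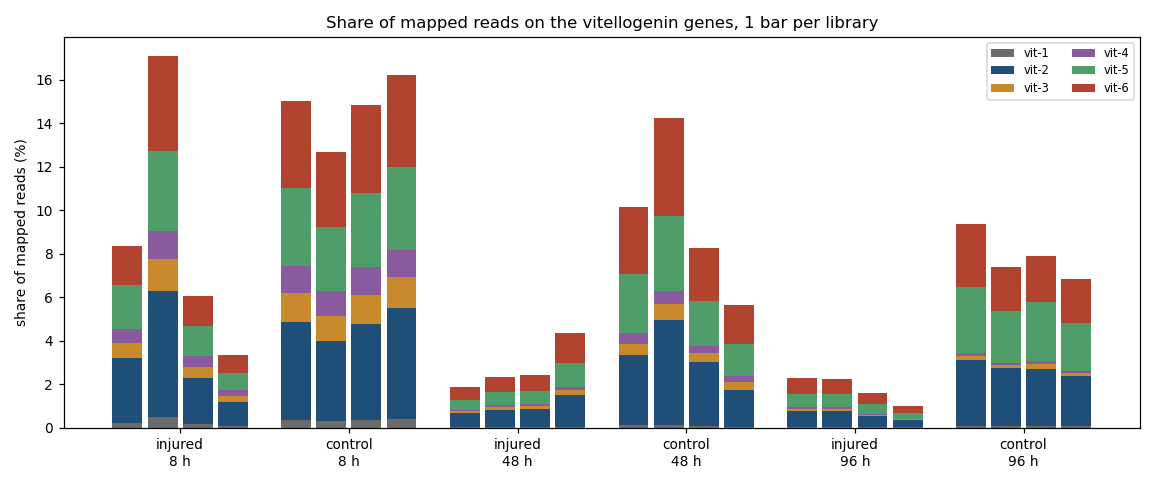
Share of mapped reads (%) on the 6 vitellogenin genes, 1 stacked bar per library in library order, injured left of control at each time and 1 colour per gene. At 96 h the injured bars reach at most 2.29% and the control bars at least 6.82%, and the band of vit-3 and vit-4 is thinner in later controls than at 8 h.

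The 8 h comparison asks what the yolk genes had done soon after the injury. All 6 vitellogenins had a lower estimate in injured worms, of which vit-4, vit-5 and vit-6 passed the test, and no vitellogenin had its injured libraries wholly below the controls. vit-6 was listed at 3555, 8636, 2688 and 1585 RPKM in injured libraries 1 to 4, against 7946, 6809.9, 7911 and 8275 in controls, a log2 change of -1.19 (SE 0.389, adjusted p = 0.0307). vit-5 had 4170.3, 7573, 2885 and 1685 RPKM in injured and 7347, 6101, 7037 and 7895 in control libraries, a change of -1.0 (SE 0.36, adjusted p = 0.0481). vit-4 had 1279.6, 2628, 963 and 543 RPKM in injured and 2517, 2270.1, 2552 and 2533 in control libraries, a change of -1.10 (SE 0.382, adjusted p = 0.0418). Injured library 2 lay above every control in vit-4 and vit-6 and within the control range in vit-5, and injured library 4 was the lowest in each gene.

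The other 3 vitellogenins did not pass at 8 h. vit-3 read 1431, 2956, 1032 and 577 RPKM in injured and 2745, 2354, 2698 and 2855 in control libraries (log2 change -1.08, 95% interval -1.9 to -0.26, adjusted p = 0.0549). vit-1 read 403, 967, 290.1 and 136 RPKM in injured and 706, 569.5, 707 and 785 in control libraries (-0.96, -1.86 to -0.06, adjusted p = 0.124). vit-2 read 6040.0, 11742, 4348 and 2211 RPKM in injured and 9082, 7495, 8983 and 10342 in control libraries (-0.80, -1.61 to 0.01, adjusted p = 0.156). Injured library 2 was above every control in each of these 3 genes. Among all features tested, 11.4% were called lower and 11% higher at 8 h, and 14.4% had all injured libraries below all controls.

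The 8 h calls depended on the scaling and on single libraries. After median-of-ratios scaling only vit-6 of the 6 vitellogenins passed by limma (adjusted p = 0.0345). vit-4 and vit-5 were then at adjusted p-values of 0.0542 and 0.0577. That scaling called 2471 of all features lower at 8 h, against 1685 as deposited. Over 36 alternatives vit-6 passed in 30, vit-4 in 23, vit-5 in 14, vit-3 in 10, vit-1 in 4 and vit-2 in 3. Without injured library 4 none of the 6 vitellogenins passed, with log2 changes from -0.83 (vit-6) to -0.40 (vit-2), and without injured library 2 all 6 passed, with changes from -1.64 (vit-6) to -1.20 (vit-2). With both left out, an alternative chosen after seeing the data, vit-1, vit-3, vit-4, vit-5 and vit-6 passed, at -1.01 to -1.32, and vit-2 did not (-0.80, adjusted p = 0.09). No vitellogenin passed without injured library 1 or 3 or control library 1, 3 or 4 of 8 h either. There the estimates moved little, with vit-6 at -1.08 to -1.21. The number of the 10 genes called ranged between 0 and 6 as each of the 24 libraries was left out in turn, and it was 0 without injured library 3, control library 1 or control library 4 of 8 h. In whole worms, fewer cells of a type and less RNA per cell cannot be told apart, here and at every result that follows.

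**Figure D2:**
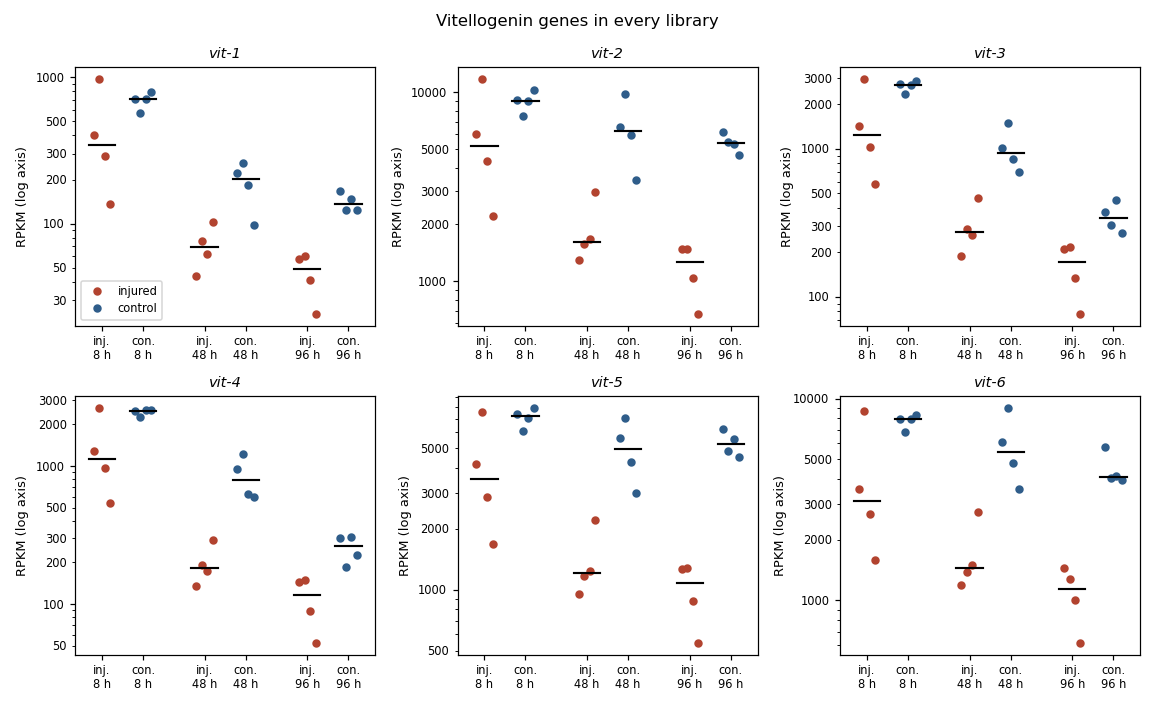
RPKM (log axis) of the 6 vitellogenin genes in each library, injured left of control at each time, with 1 point per library and a line at the median of 4. At 96 h no injured point reaches a control point, with vit-2 at 671 to 1490.2 RPKM in injured and 4662 to 6145 in control libraries, whereas at 8 h the points overlap.

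At 48 h post-injury all 6 vitellogenins were called lower in injured worms, where 10.2% of all features were called lower and 45.8% higher. vit-4 had 134, 191, 174 and 291 RPKM in injured libraries, against 956, 1220.3, 627 and 599.7 in controls, a 4.28-fold lower level (log2 change -2.10, SE 0.382, adjusted p = 8.42e-05). vit-5 had 952, 1168, 1238 and 2198 RPKM in injured and 5617, 7052, 4295 and 2991.5 in control libraries, 3.6-fold lower (-1.85, SE 0.36, adjusted p = 0.000162). vit-6 had 1187, 1374, 1504 and 2729.6 RPKM in injured and 6105, 8962, 4793 and 3542 in control libraries, 3.43-fold lower (-1.78, SE 0.389, adjusted p = 0.000573). The injured and control ranges did not meet in these genes, with injured library 4 the highest of its group and control library 4 the lowest of its own.

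vit-3, at 188, 285, 260.2 and 463 RPKM in injured and 1015, 1488, 856 and 695 in control libraries, was also 3.43-fold lower (log2 change -1.78, SE 0.394, adjusted p = 0.000653). vit-2, the most abundant yolk transcript, had 1296, 1573, 1669 and 2967 RPKM in injured and 6589, 9771, 5932 and 3431 in control libraries (-1.75, SE 0.389, adjusted p = 0.000647). vit-1 had 43.8, 75.8, 61.9 and 103 RPKM in injured and 222, 260.2, 183 and 98.6 in control libraries (-1.40, SE 0.432, adjusted p = 0.00938), and its ranges overlapped, since injured library 4 exceeded control library 4. Thus 5 of the 6 vitellogenins had every injured library below every control, against 4.83% of all features below and 38.5% above. After median-of-ratios scaling the changes were between -1.94 (vit-1) and -2.64 (vit-4). Without control library 4, the library with the largest rRNA share, they were between -1.69 (vit-1) and -2.24 (vit-4), and the 6 passed in all 36 alternatives.

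At 96 h the 6 vitellogenins were again all called lower, with no overlap of ranges in any of them, where 28.4% of all features were called lower, 32.8% higher, 30.2% lay wholly below and 36.2% wholly above the controls. vit-5 had 1269.9, 1282, 878 and 545 RPKM in injured libraries, against 6197, 4866, 5574 and 4532 in controls, a 5.59-fold lower level (log2 change -2.48, SE 0.36, adjusted p = 3.98e-06). vit-2 had 1490.2, 1489, 1035 and 671 RPKM in injured and 6145, 5444, 5336 and 4662 in control libraries, 4.82-fold lower (-2.27, SE 0.389, adjusted p = 3.84e-05). vit-6 had 1439.7, 1280.3, 1001 and 615 RPKM in injured and 5735, 4019, 4151 and 3967 in control libraries, 4.28-fold lower (-2.10, SE 0.389, adjusted p = 9.29e-05). These 3 most abundant vitellogenins had the larger estimates.

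vit-1 followed with 57.0, 60.2, 41.5 and 24.2 RPKM in injured and 167, 124, 146 and 124 in control libraries (log2 change -1.68, SE 0.432, adjusted p = 0.00221). vit-4 had 144, 148, 89.2 and 52.2 RPKM in injured and 303, 186, 307 and 225 in control libraries (-1.32, SE 0.382, adjusted p = 0.00511). vit-3 had 209, 216, 133 and 76.4 RPKM in injured and 372, 304.5, 453 and 272 in control libraries (-1.23, SE 0.394, adjusted p = 0.0106). Injured library 4 was the lowest of its group in every vitellogenin. vit-3 lost its call without that library, at -0.91 (adjusted p = 0.052, and 1.11e-06 to 0.052 over its 36 alternatives), and the other 5 passed in all 36.

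**Figure D3:**
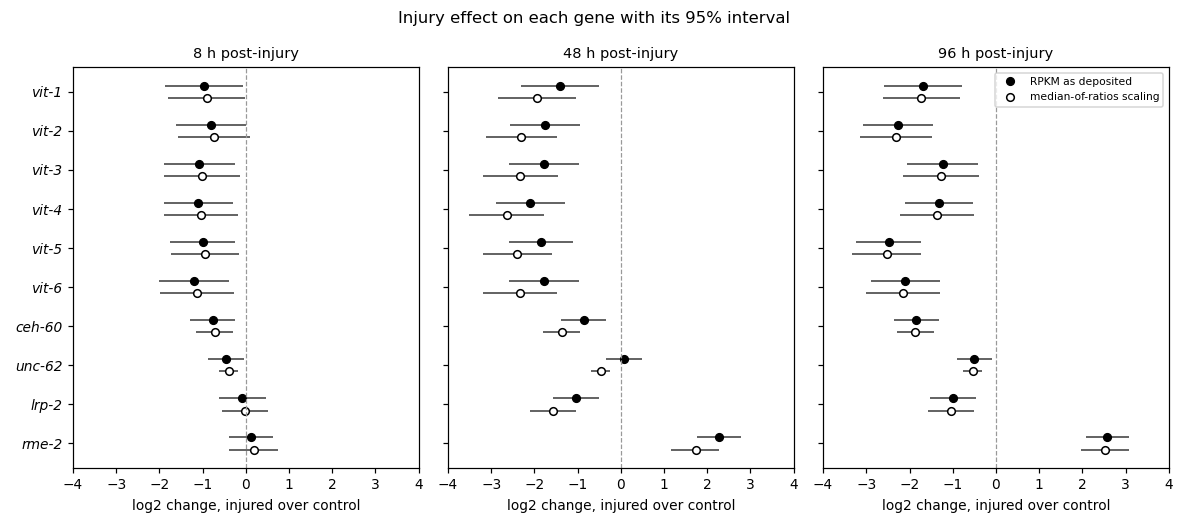
Log2 change of injured over control for each of the 10 genes at 8, 48 and 96 h, with filled points for RPKM as deposited, open points after median-of-ratios scaling and lines for the 95% interval. rme-2 sits at 0.12, 2.27 and 2.58 as deposited, opposite to the vitellogenins, and unc-62 at 48 h changes side between the scalings, from 0.07 as deposited to -0.46 scaled.

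The ages of the controls were compared to see how the yolk genes move without injury. vit-1, vit-3 and vit-4 fell with time and vit-2, vit-5 and vit-6 were not called. Relative to 8 h controls, 48 h controls were lower in vit-1 (log2 change -1.93, 95% interval -2.83 to -1.03), vit-3 (-1.45, -2.27 to -0.63) and vit-4 (-1.60, -2.39 to -0.81), and 96 h controls were lower in vit-1 (-2.30, -3.2 to -1.4), vit-3 (-2.95, -3.77 to -2.13) and vit-4 (-3.30, -4.09 to -2.51), which is a 9.86-fold lower level of vit-4. The 96 h controls differed from 8 h controls by -0.73 in vit-2 (-1.54 to 0.08, adjusted p = 0.108), -0.81 in vit-6 (-1.61 to 0, adjusted p = 0.0772) and -0.43 in vit-5 (-1.17 to 0.32, adjusted p = 0.309). vit-2 and vit-6 had every 96 h control below every 8 h control. How often control ranges of different ages were apart over all features was not counted. vit-2 and vit-6 passed in 6 and 9 of 35 alternatives, among them leaving out injured 8 h library 2 (adjusted p = 0.0494 and 0.018) and, for vit-6, median-of-ratios scaling (-0.94, adjusted p = 0.0453). vit-5 passed in none of the 35. Between 48 and 96 h vit-3 (-1.50, adjusted p = 0.0161) and vit-4 (-1.70, adjusted p = 0.00566) fell and the other 4 were not called, where 1.26% of all features fell (187, against 1606 after median-of-ratios scaling, under which vit-3 and vit-4 passed at -1.85 and -2.05). The call of vit-3 was lost without control 48 h library 2 (-1.30, adjusted p = 0.059) or control 96 h library 2 (-1.44, adjusted p = 0.0516). The shares called among all features were 30% lower and 18.8% higher in 48 h against 8 h controls, and 26% lower and 36.2% higher in 96 h against 8 h controls.

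The make-up of the vitellogenin pool was also read as ratios within a library, which no scaling between libraries can alter. These ratios were picked after their values were seen and are given without a test. vit-3 over vit-2 was 0.237, 0.252, 0.237 and 0.261 in 8 h injured libraries, against 0.302, 0.314, 0.3 and 0.276 in 8 h controls. At 96 h it was 0.14, 0.145, 0.129 and 0.114 in injured libraries and 0.0605, 0.0559, 0.0848 and 0.0583 in controls. The ratio was thus lower in every injured library than in every control at 8 h and higher in every injured library at 96 h, while at 48 h the ranges overlapped, at 0.145 to 0.181 in injured and 0.144 to 0.203 in control libraries. vit-4 over vit-2 had a like pattern at 96 h, at 0.0778 to 0.0997 in injured and 0.0341 to 0.0575 in control libraries. vit-5 over vit-2 went the other way at 96 h, with 0.812 to 0.861 in injured and 0.894 to 1.04 in control libraries. vit-6 over vit-2 was apart at 8 h, at 0.588 to 0.736 in injured and 0.8 to 0.909 in control libraries, and overlapped at 96 h, at 0.86 to 0.968 and 0.738 to 0.933. Since vit-3, vit-4 and vit-5 share long stretches of sequence, part of any of their ratios may reflect how shared reads were assigned, which was not tested.

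**Figure D4:**
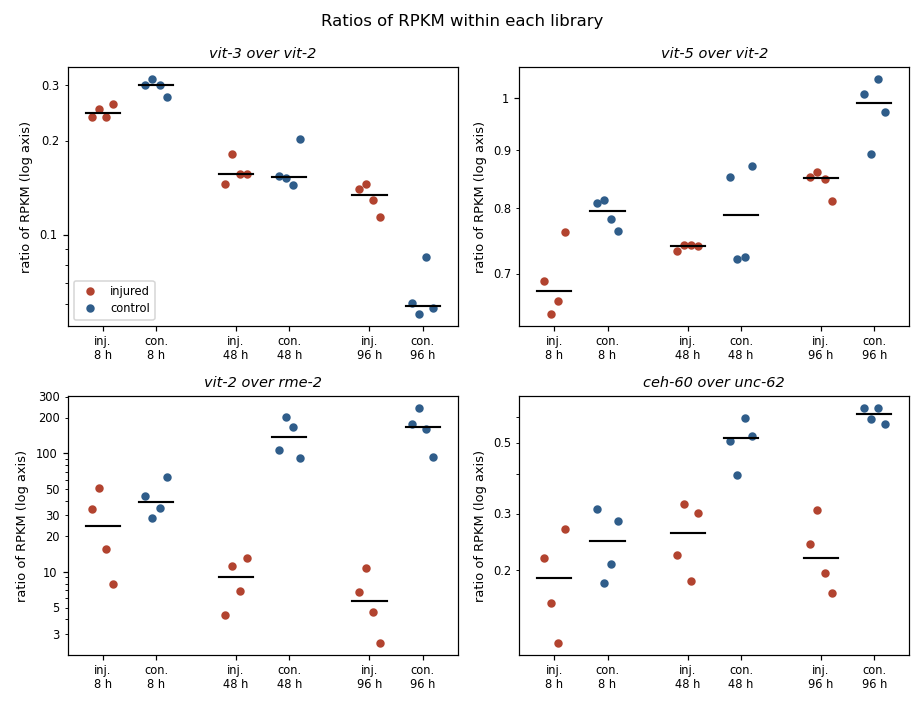
Ratios of RPKM within each library (log axis), injured left of control at each time, with 1 point per library and a line at the median of 4. vit-2 over rme-2 stays at or below 13.2 in injured libraries of 48 and 96 h and at or above 91.5 in their controls, and ceh-60 over unc-62 at 96 h stays at or below 0.309 in injured and at or above 0.572 in control libraries.

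Among the regulators, ceh-60 was called lower in injured worms at all 3 times. At 8 h it had 3.65, 2.62, 2.18 and 4.27 RPKM in injured libraries, against 6.87, 4.37, 4.84 and 6.77 in controls, a log2 change of -0.77 (SE 0.258, adjusted p = 0.0266), with no overlap. At 48 h it had 4.87, 7.31, 4.57 and 7.09 RPKM in injured and 13.98, 9.84, 16.77 and 6.28 in control libraries, a change of -0.86 (SE 0.258, adjusted p = 0.00473), or -1.37 after median-of-ratios scaling and -1.11 without control library 4, whose value lay within the injured range. At 96 h it had 4.4, 6.75, 3.86 and 3.37 RPKM in injured and 17.84, 16.27, 17.73 and 17.06 in control libraries, a 3.58-fold lower level (-1.84, SE 0.258, adjusted p = 1.65e-07). The 96 h groups were far apart, and the controls stood close together. Every injured library lay below every control in 14.4% of all features at 8 h and 30.2% at 96 h. ceh-60 rose with age in the controls, by 0.91 on the log2 scale at 48 h and by 1.54 at 96 h relative to 8 h. Injured libraries held 2.18 to 4.27, 4.57 to 7.31 and 3.37 to 6.75 RPKM at 8, 48 and 96 h. Every injured library of 48 h thus also lay above those of 8 h, and the share of all features separated in this way was not counted. The 8 h call of ceh-60 was lost without injured library 2 or 3 or control library 1 or 4 of that time (changes of -0.63 to -0.7), and its other calls passed in all 36 alternatives.

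unc-62 encodes the MEIS partner of ceh-60. At 8 h it had 16.66, 16.43, 18.34 and 15.80 RPKM in injured and 22.14, 23.85, 23.03 and 23.73 in control libraries, apart in range but not called (log2 change -0.45, 95% interval -0.87 to -0.04, adjusted p = 0.111, and 0.00108 to 0.296 over 36 alternatives, of which 7 passed). Leaving out control 48 h library 4, which enters this result through the shared estimate of the spread alone, left the change at -0.45 and brought it past the threshold. At 48 h it had 21.80, 22.64, 24.62 and 23.50 RPKM in injured and 27.64, 24.85, 28.05 and 11.97 in control libraries, a change of 0.07 (-0.34 to 0.49, adjusted p = 0.778). That direction turned with the scaling and with control library 4, as the change was -0.46 after median-of-ratios scaling (adjusted p = 0.000695, and 0.000695 to 0.889 over 36 alternatives) and -0.21 without that library (adjusted p = 0.102). At 96 h unc-62 had 18.24, 21.81, 19.72 and 19.82 RPKM in injured and 27.94, 27.57, 27.70 and 29.80 in control libraries, 1.41-fold lower (-0.50, SE 0.204, adjusted p = 0.0337, and 1.99e-07 to 0.0833 over 36 alternatives), with no overlap. The 96 h call was lost in 7 of the 8 fits that left out a library of that time. Ranges apart, with every injured library below every control, were found in 14.4% of all features at 8 h and 30.2% at 96 h. Relative to 8 h controls, unc-62 differed by 0.28 in 96 h controls (-0.13 to 0.69, adjusted p = 0.234) and was not called. Every 96 h control lay above every 8 h control, a separation whose share over all features was not counted.

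lrp-2 was not called at 8 h, at 12.80, 18.06, 10.72 and 5.86 RPKM in injured and 11.69, 11.16, 11.13 and 12.68 in control libraries (log2 change -0.08, 95% interval -0.61 to 0.46, adjusted p = 0.888), where the injured libraries lay on both sides of the controls in the same order as the vitellogenins. At 48 h it had 9.88, 9.13, 9.83 and 12.99 RPKM in injured and 28.65, 30.60, 25.34 and 10.40 in control libraries, a change of -1.05 (SE 0.265, adjusted p = 0.000983), or -1.57 after median-of-ratios scaling and -1.40 without control library 4, the only control within the injured range. At 96 h it had 11.30, 12.32, 9.27 and 9.20 RPKM in injured and 20.03, 20.07, 20.76 and 24.98 in control libraries, 2-fold lower (-1.0, SE 0.265, adjusted p = 0.0014), with no overlap. Every injured library lay below every control in 30.2% of all features at 96 h. In controls lrp-2 was 0.89 higher on the log2 scale at 48 h and 0.85 higher at 96 h than at 8 h, both called. Injured libraries stayed at 9.13 to 12.99 RPKM at 48 h and 9.20 to 12.32 RPKM at 96 h, within the span of the 8 h injured libraries.

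**Figure D5:**
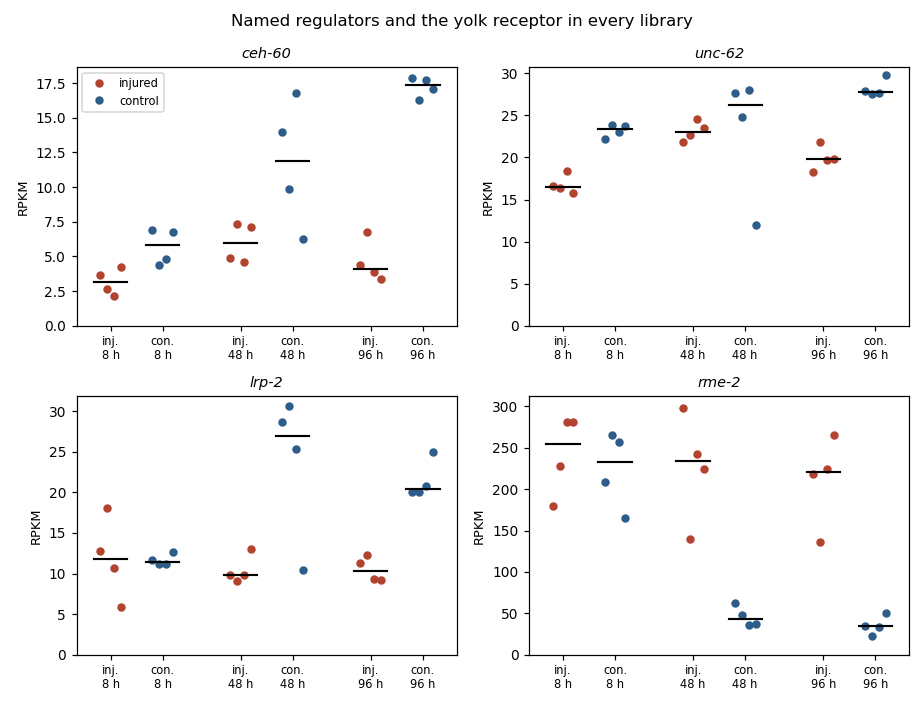
RPKM of ceh-60, unc-62, lrp-2 and rme-2 in each library, injured left of control at each time, with 1 point per library, a line at the median of 4 and axes from 0. At 96 h ceh-60 and lrp-2 lie lower in every injured library than in every control, and rme-2 stays at 136 RPKM or more in every injured library while no control of 48 or 96 h exceeds 61.9.

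Between injured and control worms of 48 and 96 h, rme-2, the oocyte receptor, moved opposite to the genes of its ligand. With age in the controls it fell, as vit-1, vit-3 and vit-4 did. At 8 h rme-2 had 179, 228, 281 and 281 RPKM in injured and 208, 265, 257 and 165 in control libraries, with no difference called (log2 change 0.12, 95% interval -0.38 to 0.62, adjusted p = 0.808). At 48 h it had 298, 140.1, 242 and 225 RPKM in injured libraries, against 61.9, 48.5, 35.7 and 37.5 in controls, a 4.83-fold higher level (2.27, SE 0.247, adjusted p = 3.18e-09). At 96 h it had 218, 136, 224 and 265 RPKM in injured and 35.1, 22.7, 33.3 and 49.9 in control libraries, 5.97-fold higher (2.58, SE 0.247, adjusted p = 8.83e-11). No injured library fell within the control range at either time. Every injured library lay above every control in 38.5% of all features at 48 h and 36.2% at 96 h. The shares called higher were 45.8% and 32.8%. The difference came with a lower level in later controls, as rme-2 was 4.87-fold lower in 48 h than in 8 h controls (-2.28, adjusted p = 2.37e-09) and 6.4-fold lower in 96 h than in 8 h controls (-2.68, adjusted p = 2.31e-11), whereas the injured libraries of all 3 times overlapped. Median-of-ratios scaling gave 1.73 at 48 h and 2.53 at 96 h, and both injury calls passed in all 36 alternatives.

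Because vit-2 and rme-2 moved in opposite directions between injured and control worms of 48 and 96 h, their ratio within a library was wide apart at those times. At 8 h it was 33.7, 51.4, 15.5 and 7.86 in injured and 43.6, 28.3, 34.9 and 62.8 in control libraries, which overlap. At 48 h it was 4.34, 11.2, 6.89 and 13.2 in injured and 106, 201, 166 and 91.5 in control libraries. At 96 h it was 6.84, 10.9, 4.61 and 2.53 in injured and 175, 240.0, 160.0 and 93.5 in control libraries. The ratio fell below the 8 h range of controls in all later injured libraries and rose above it in all later controls. The same reading of ceh-60 over unc-62, the homeodomain partners, gave 0.186 to 0.323 in injured and 0.396 to 0.598 in control libraries at 48 h, and 0.17 to 0.309 in injured and 0.572 to 0.64 in control libraries at 96 h, while at 8 h the ranges overlapped.

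The injury effect was compared between times. It was larger at 48 h than at 8 h in rme-2 (difference of log2 changes 2.16, SE 0.349, adjusted p = 2.34e-05) and more negative in lrp-2 (-0.97, SE 0.374, adjusted p = 0.0384), and no vitellogenin passed, with differences between -1.0 (vit-4) and -0.44 (vit-1). After median-of-ratios scaling vit-4 (-1.61, adjusted p = 0.032), vit-2 (-1.56, adjusted p = 0.0298) and vit-5 (-1.45, adjusted p = 0.0357) passed as well, with rme-2 at 1.55 and lrp-2 at -1.56, and unc-62, not called either way, turned from 0.53 to -0.07. From 8 to 96 h it changed in rme-2 (2.46, SE 0.349, adjusted p = 1.64e-06), ceh-60 (-1.07, SE 0.365, adjusted p = 0.0168), vit-5 (-1.48, SE 0.509, adjusted p = 0.0231), vit-2 (-1.47, SE 0.55, adjusted p = 0.0358) and lrp-2 (-0.92, SE 0.374, adjusted p = 0.0432). With limma none of the 10 passed between 48 and 96 h, where 1 had an unadjusted p below 0.05 (ceh-60, -0.98, adjusted p = 0.0624) and 2 passed with array weights. Among all features the share called was 31.6% higher and 5.29% lower between 8 and 48 h, 23.6% higher and 20.1% lower between 8 and 96 h, and 0.662% higher and 14.3% lower between 48 and 96 h. Median-of-ratios scaling gave 2899 features higher and 3325 lower between 8 and 48 h, against 4679 and 783 as deposited. Several of the calls among the 10 genes lay near the threshold. lrp-2 at 48 against 8 h passed in 23 of 35 alternatives (adjusted p up to 0.115, without injured 8 h library 2), lrp-2 at 96 against 8 h in 20 (up to 0.12, without the same library) and vit-2 in 25 (up to 0.0898, without injured 96 h library 4). The lrp-2 calls were also lost with no filter on low values (adjusted p = 0.0735 and 0.0794), and that at 96 against 8 h without the trend and robust settings (0.0522). Some of these losses left the change as it was, at -0.97 in lrp-2 and -1.47 in vit-2 without control 8 h library 1. vit-5 lost its call without injured 96 h library 4 alone (-1.22, adjusted p = 0.0591), and rme-2 and ceh-60 passed in all 35.

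Genes of oocytes moved with rme-2. Of 12 oocyte markers, none was called at 8 h, and 10 were called higher and 2 lower in injured worms at both 48 and 96 h, at medians of 2.25 and 2.69 on the log2 scale against 0.48 and 0.07 over all features, of which 45.8% and 32.8% were called higher. The shares of all features called lower were 10.2% at 48 h and 28.4% at 96 h. puf-11, a Pumilio-family RNA-binding protein gene, was 2.61 and 3.08 higher at 48 and 96 h, egg-1 and egg-2, which encode LDL-receptor-repeat proteins of the oocyte surface, 2.57 and 3.09, and 2.30 and 2.71, and chs-1, the eggshell chitin synthase gene, 2.35 and 2.79. The exceptions were perm-2 and perm-4, genes of eggshell proteins, named here after their values were seen, at -0.65 and -0.72 at 48 h and -2.15 and -2.26 at 96 h. Both are abundant, together at 1830 to 3820 RPKM in injured and 12000 to 13000 in control libraries at 96 h, so that the sum of all 12 was lower in injured libraries at that time, at 4320 to 5100 RPKM against 12400 to 13200 in controls. The other 10 summed to 1260 to 2560 RPKM in injured and 327 to 536 in control libraries at 48 h, and to 1280 to 2490 in injured and 195 to 416 in control libraries at 96 h, and at 8 h to 1640 to 2430 in injured and 1360 to 2180 in control libraries. In the controls 10 of the 12 fell between 8 and 96 h, whereas perm-2 (1.32) and perm-4 (1.55) rose. Over all features 26% fell and 36.2% rose between these controls. Median-of-ratios scaling left the same counts at 48 and 96 h, at medians of 1.71 and 2.64. It called 4416 of all features higher and 4234 lower at 48 h, and 5396 higher and 5021 lower at 96 h. None of the markers was at 0 in any group. The part of oocyte number in the level of rme-2 was not tested.

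Markers of the intestine, the tissue that makes yolk, moved with the vitellogenins in part. Of 8 markers, 2 were called lower and 1 higher at 8 h, 5 lower and 2 higher at 48 h, and 7 lower and none higher at 96 h, at medians of -0.51, -0.94 and -1.90 on the log2 scale, against -0.02, 0.48 and 0.07 over all features. Of all features 11.4% were lower and 11% higher at 8 h, 10.2% lower and 45.8% higher at 48 h, and 28.4% lower and 32.8% higher at 96 h. The esterase gene ges-1 changed by -2.63 at 48 h and -3.09 at 96 h, and the cysteine protease gene cpr-1 by -2.40 and -2.31. The aspartyl protease gene asp-1 changed by -1.43 and -2.27, while ifb-2, an intestinal intermediate filament gene, was higher at 8 h (0.92) and 48 h (1.09) and not called at 96 h (0.27, adjusted p = 0.246). The markers summed to 1150 to 2090 RPKM in injured and 1700 to 2010 in control libraries at 8 h, to 611 to 1080 in injured and 985 to 1750 in control libraries at 48 h, and to 413 to 868 in injured and 1760 to 2120 in control libraries at 96 h, and none was at 0. After median-of-ratios scaling 6 were lower and 1 higher at 48 h. Over all features that scaling called 4234 lower and 4416 higher at 48 h, against 1518 and 6791 as deposited. Whether the vitellogenins fell with the amount of intestinal RNA was not tested.

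Other known regulators of yolk production were followed as a list of 11, among them the intestinal GATA factor genes elt-2 and elt-7, the zinc finger gene pqm-1, insulin pathway genes and the mTORC2 genes rict-1 and sgk-1. By limma on the deposited values none was higher in injured worms at any time (1 was at 8 h after median-of-ratios scaling), and 1 was lower at 8 h, none at 48 h and 7 at 96 h, at medians of -0.11, -0.19 and -0.82. elt-2 changed by -0.56 at 48 h (adjusted p = 0.0563) and -1.60 at 96 h (adjusted p = 1.62e-06), where it had 6.33 ± 2.09 RPKM in injured and 19.6 ± 1.87 in control libraries (SD, n = 4 each). pqm-1 changed by 0.44 at 48 h (adjusted p = 0.0919) and -0.93 at 96 h (adjusted p = 0.000542), with 57.5 ± 11.7 RPKM in injured and 109 ± 10.1 in control libraries at 96 h. alg-1, an Argonaute gene of the microRNA pathway, changed by -0.44 and -0.57, passing at 96 h alone (adjusted p = 0.0923 and 0.0274), and daf-16, the FOXO factor gene, by 0.38 and -0.31, not called (adjusted p = 0.094 and 0.166). Named after their values were seen, vrp-1 was the gene called at 8 h (-1.23) and at 96 h changed by -1.78, elt-7 by -1.65 and sgk-1 by -1.56. The 48 h count depended on the scaling: as deposited 1 of the 11 had an unadjusted p below 0.05 (elt-2), and after median-of-ratios scaling 6 of the 10 then tested were lower. That scaling called 4234 of all features lower at 48 h, against 1518 as deposited. In controls 5 of the 11 rose between 8 and 96 h and none fell, where 36.2% of all features rose and 26% fell. The shares of all features called lower in injured worms were 11.4% at 8 h, 10.2% at 48 h and 28.4% at 96 h.

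Genes of lipid loading and of endocytic uptake did not move as a group. Of 11, 2 were higher at 8 h, 4 higher and 1 lower at 48 h, and 2 lower at 96 h (dsc-4 and rme-4), at medians of 0.15, 0.41 and -0.10, against -0.02, 0.48 and 0.07 over all features. Of all features 11% were higher at 8 h, 45.8% higher and 10.2% lower at 48 h, and 28.4% lower at 96 h. dsc-4, which encodes the microsomal triglyceride transfer protein that lipidates vitellogenins, was the exception in size, at -1.09 at 48 h (adjusted p = 0.000179) and -2.46 at 96 h (adjusted p = 6.85e-11). It had 5.19 ± 1.87 RPKM in injured and 29.8 ± 2.89 in control libraries at 96 h (SD, n = 4 each). The endosomal GTPase genes rab-5, rab-35 and rab-7 were higher at 48 h, by 0.67, 0.71 and 0.55, close to the 0.48 of the median feature, and after median-of-ratios scaling no gene of the list was higher and 3 were lower at 48 h, and 5 were higher at 8 h. Over all features that scaling called 4234 lower at 48 h and 3076 higher at 8 h, against 1518 and 1631 as deposited. The list summed to 1300 to 1680 RPKM in injured and 1000 to 1060 in control libraries at 8 h. The genes called at 8 h, named after their values were seen, were rme-1 (1.29), an endocytic recycling gene, and chc-1 (0.71), which encodes the clathrin heavy chain.

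The 6 vitellogenins varied together across the 24 libraries, with Pearson correlations of log2 values from 0.82 (vit-4 with vit-5) to 1.00 (vit-3 with vit-4). Around the group means they still correlated at 0.93 to 0.99, so that libraries of one group were high or low in all 6 together. The regulators were less alike, as ceh-60 correlated with the vitellogenins at -0.11 to 0.40 across libraries and lrp-2 at 0.20 to 0.62, but around the group means lrp-2 followed the vitellogenins at 0.73 to 0.86 and ceh-60 at 0.14 to 0.26. unc-62 correlated with the vitellogenins at -0.09 to 0.29 across libraries and at 0.19 to 0.36 around the group means. rme-2 correlated with ceh-60 at -0.87 and with lrp-2 at -0.74 across libraries, and at -0.37 and 0.02 around the group means. With unc-62 rme-2 correlated at -0.41 across libraries and at 0.15 around the group means. With the vitellogenins rme-2 correlated at -0.42 (vit-5) to 0.07 (vit-4) across libraries. All values of a library share its depth and its rRNA share, which the correlations do not separate. Outside the 10 genes, the features most like the mean of the vitellogenins were pmt-2 (r = 0.963), a phosphoethanolamine methyltransferase gene of phosphatidylcholine synthesis, F13D12.6 (0.961), C24B9.3 (0.961) and the C-type lectin genes clec-66 (0.96) and clec-63 (0.957). pmt-2 had 23.9 to 51.9 RPKM in injured and 96.5 to 104.6 in control libraries at 96 h. Those most like rme-2 were gld-3, a germline RNA-binding protein gene, the Wnt gene mom-2, the maternal RNA-binding protein gene spn-4, the patched-related gene ptr-2 and chs-1, all at 0.995, of which spn-4 and chs-1 are in the oocyte list.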

How the data were processed

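Whole-worm poly(A) RNA of 24 libraries in 6 groups of 4 was measured. Reads were aligned to ce11 in CLC Genomics Workbench by the authors, and the values they deposited are RPKM, not scaled further between libraries. Mapping, strand and annotation settings are not given in the sources used here. The 6 columns of the authors' p-values, raw and adjusted, for injured against control at each time were not used. Groups were taken from the labels, and 0 columns of values were left unmapped. For depth, the total was sought that turned the highest share of low values into whole reads, within 0.1 read. That share was 47.6 to 56.8% in the 23 libraries accepted and 28.1% in control 48 h library 4. Gene coordinates are those of the ce11 annotation (41586 features found by symbol, 3840 by sequence name).

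limma 3.58.1 (R 4.3.3) fitted log2(RPKM + 0.5), with a mean per group, no covariate and eBayes with trend and robust settings, over the 14813 of 46739 features that reached 1 RPKM in 4 or more libraries. Tests were two-sided, Benjamini-Hochberg adjusted over these features. A change in log2 understates that of low genes. The fit was tested on simulated data. The rest was made with Python 3.11.15, numpy 2.4.6, pandas 2.3.3, matplotlib 3.10.9 and data.table (version 1.17.8).

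Named were all 10 genes, the 5 other features most correlated with the vitellogenin mean and with rme-2, and up to 4 genes of each list with the smallest p at 48 h. Other list genes were named after their values were seen. The members and lists were chosen with earlier results of these data known. Lists of sperm, embryo, muscle, hypodermis and neuron markers were also counted. Alternatives were other scalings, pseudocounts, filters, weights, variance settings and subsets of libraries.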

Additional observations from a re-analysis of the deposited data

Results flagged for a closer look

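In 60 groups of 4 values, 4 held a library far from the other 3, where chance alone gives about 1 in 20. They were vit-4 in control 8 h library 2 (2270.1 RPKM, the lowest of its group), vit-6 in control 96 h library 1 (5735 RPKM, the highest), unc-62 in control 96 h library 4 (29.8 RPKM, the highest) and lrp-2 in control 96 h library 4 (24.98 RPKM, the highest).

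The injury effect differed between 8 and 48 h, by the interaction term of the limma fit, in rme-2 (2.16 on the log2 scale, adjusted p = 2.34e-05) and lrp-2 (-0.97, adjusted p = 0.0384). Between 8 and 96 h it differed in rme-2 (2.46, adjusted p = 1.64e-06), ceh-60 (-1.07, adjusted p = 0.0168), vit-5 (-1.48, adjusted p = 0.0231), vit-2 (-1.47, adjusted p = 0.0358) and lrp-2 (-0.92, adjusted p = 0.0432). In rme-2 the difference came with the fall of the controls after 8 h, while the injured libraries of the 3 times overlapped.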

How the results depend on the processing

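No paired analysis was possible because the columns of the table carry no replicate numbers. Of the 10 genes, 4 were called at 8 h, and 8 with array quality weights or without the libraries over 5% rRNA. Array quality weights also called 5 rather than 2 for 48 against 8 h of the injury effect, 2 rather than 0 for 96 against 48 h, and 4 rather than 2 for 96 against 48 h of the controls. The effect at 48 against 8 h was called in 5 with median-of-ratios scaling and in 1 with no filter on low values, and that at 96 against 48 h in 1 without injured 8 h libraries 2 and 4 (chosen after seeing the data). As each library was left out, the genes called numbered 0 to 6 at 8 h, 9 throughout at 48 h, 8 to 10 at 96 h, 1 to 5, 0 to 1 and 2 to 6 for the effect at 48 against 8 h, 96 against 48 h and 96 against 8 h, and 1 to 3 for the controls at 96 against 48 h.

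Several uncalled values turned direction. unc-62 at 48 h (0.07) became -0.46 with median-of-ratios scaling, -0.30 rescaled without rRNA and vitellogenins, -0.16 with array weights, -0.26 without the libraries over 5% rRNA and -0.48 scaled without control 48 h library 4 (added after seeing the data), and ranged between -0.21 and 0.19 as each library was left out. unc-62 in 48 against 8 h controls (-0.08) became 0.13, 0.09, 0.23, 0.26 and 0.15 under the same settings in that order, and -0.19 to 0.21 over left-out libraries. lrp-2 at 8 h (-0.08) became 0.01 without the libraries over 5% rRNA and 0.01 without injured 8 h libraries 2 and 4, and -0.31 to 0.21 over left-out libraries. rme-2 at 8 h (0.12) ranged between -0.02 and 0.25. With median-of-ratios scaling further uncalled values turned: unc-62 in the effect at 48 against 8 h (0.53 to -0.07), vit-6 (-0.32 to 0.18) and vit-1 (-0.28 to 0.22) in that at 96 against 48 h, and vit-5 in 96 against 48 h controls (0.15 to -0.21). The cause of these changes was not tested.

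Over all features, the number called at 8 h was 3316, and 5547 with median-of-ratios scaling, 5222 rescaled without rRNA and vitellogenins, 6407 with array weights, 5269 without the libraries over 5% rRNA and 5486 scaled without control 48 h library 4. For the injury effect at 96 against 48 h it was 2209, and 5727, 1446 and 1325 with the last 3 of these settings, 1218 to 3613 over left-out libraries. For controls at 96 against 48 h it was 1915, and 5019, 780 and 1271, 962 to 3820 over left-out libraries. For the effect at 96 against 8 h it was 6469, and 9821 with array weights. Median-of-ratios scaling moved the split of higher and lower calls, to 4416 and 4234 at 48 h (6791 and 1518 as deposited), 4841 and 4399 for 48 against 8 h controls (2778 and 4437), 996 and 1606 for 96 against 48 h controls (1728 and 187), 2899 and 3325 for the effect at 48 against 8 h (4679 and 783) and 1151 and 1061 at 96 against 48 h (98 and 2111).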

Other observations

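Markers of other tissues were counted in the same fit. Of all features 11.4% were lower and 11% higher at 8 h, 10.2% lower and 45.8% higher at 48 h, and 28.4% lower and 32.8% higher at 96 h. Of 5 sperm markers 1 was tested and not called, and the list summed to 0.21 to 5.09 RPKM over all libraries. Of 5 early embryo markers 4 were tested, of which 3 were lower in injured worms at 8 h, 2 lower at 48 h, and 2 lower and 1 higher at 96 h, at a median of -1.60 at 8 h and with sums of 3.86 to 7.78 RPKM in injured and 15.6 to 25.8 in control libraries at 8 h. Of 3 body wall muscle markers 2 were higher in injured worms at 8 h, with sums of 166 to 865 RPKM in injured and 188 to 220 in control libraries, and none was called later. None of 3 hypodermis markers, all cuticle collagen genes, was called by limma on the deposited values in injured against control worms, at unadjusted p-values of 0.224 or more. Of 4 neuron markers 1 was higher at 8 h and 2 at 48 h, with sums of 423 to 592 RPKM in injured and 339 to 349 in control libraries at 8 h. After median-of-ratios scaling 2 neuron markers were higher at 8 h, 1 lower and none higher at 48 h, and 2 lower at 96 h. With that scaling 2 muscle and 2 hypodermis markers were also lower at 48 h. It called 4234 of all features lower at 48 h and 5021 at 96 h, and 3076 higher at 8 h. The numbers as deposited were 1518, 4210 and 1631.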
